A study of Mus musculus with 32 samples.

Results

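Open chromatin regions of early 2-cell mouse embryos that lie far from any gene start, and that were still called when the acetyltransferases CBP and p300 had been inhibited, are described here. They were chosen by 2 peak lists: a peak of the DMSO-treated early 2-cell list entered if it lay over 2.5 kb from every transcript start of the GENCODE M21 annotation and overlapped a peak of the A-485-treated early 2-cell list by at least 1 bp. This selected 926 retained distal peaks, out of 27693 early 2-cell DMSO peaks in all and out of 16719 distal ones. The early 2-cell A-485 list was shorter, with 13712 peaks. The remaining 15793 distal peaks had no A-485 peak and served for comparison, as did 4933 early 2-cell DMSO peaks within 1 kb of a start that did overlap an A-485 peak (retained promoter peaks).

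Accessibility was measured by ATAC-seq, in which a transposase cuts DNA that nucleosomes leave exposed. Embryos of the late 1-cell stage and of the early 2-cell stage were used, with 2 libraries for each stage and treatment but 1 deposited peak list over both. All embryos were wild type, came from B6D2F1/J oocytes fertilised in vitro with B6D2F1/J sperm, both from mice of 6 to 8 weeks, and were grown in KSOM medium. The treated groups received 10 μM A-485, an inhibitor of the catalytic activity of CBP and p300, between 4 and 20 hours after fertilisation, and the control groups received DMSO. Embryos taken at the late 1-cell stage may have had a shorter exposure, since that stage comes before early 2-cell. The RNA-seq used here held 2 libraries for each treatment at the early and at the late 2-cell stage, with 13206163 to 23864414 counts per library. The inhibitor was washed out before the late 2-cell stage. How many embryos went into a library, and whether the 2 libraries of a group came from separate fertilisations, is not given in the sources used here, so p-values measure the spread between these libraries, which may be technical.

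Of the RNA markers fixed for the cell types a sample could hold, the 5 oocyte genes (Gdf9, Bmp15, Zp2, Zp3, Oosp1) summed to between 1483 and 1772 FPKM (fragments scaled to transcript length and to library depth) in every early 2-cell library. The 5 genes of the 2-cell stage (Zscan4d, Zscan4c, Zfp352, Usp17lc, Tdpoz4) summed to 353 to 415 FPKM with DMSO and to 6.58 to 7.87 FPKM with A-485. Cumulus cell markers summed to at most 1.13 FPKM, fibroblast markers to at most 0.56 FPKM and sperm markers to at most 8.44 FPKM at this stage, the last mostly from Prm2. The maternal RNA was present in both groups, and the 2-cell transcripts were low in the treated group. In these libraries of whole embryos, fewer cells that express a gene and less RNA per cell cannot be told apart.

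Distal open regions typically hold enhancers, where sequence-specific factors displace nucleosomes and recruit coactivators. CBP and p300 are such coactivators, and they acetylate histone H3 at lysine 27. Other open regions far from genes are bound by CTCF, the zinc finger protein that anchors chromatin loops together with cohesin, or lie in CpG-rich DNA, which is often open in many cell types. In mouse embryos the genome first becomes broadly transcribed at the 2-cell stage, so that regions that are already open at the late 1-cell stage precede that wave.

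The strongest retained peaks were unusual in sequence, and the bases around their strongest summits are shown first. The first set holds the 4 strongest members that also overlapped a late 1-cell DMSO peak, read from the forward strand of GRCm38: chr2:69355498-69355697 (nearest gene Abcb11), chr10:96077567-96077766 (AC115970.1), chrX:143482962-143483161 (Pak3) and chr5:60042889-60043088 (Gm43393). Capitals mark bases that align with the mouse mitochondrial genome. The alignment runs over 129 bases at 100% identity at the Abcb11 member, over 373 bases at 97.6% at the AC115970.1 member and over 383 bases at 97.9% at the Gm43393 member, and the Pak3 member has none.
Abcb11 member: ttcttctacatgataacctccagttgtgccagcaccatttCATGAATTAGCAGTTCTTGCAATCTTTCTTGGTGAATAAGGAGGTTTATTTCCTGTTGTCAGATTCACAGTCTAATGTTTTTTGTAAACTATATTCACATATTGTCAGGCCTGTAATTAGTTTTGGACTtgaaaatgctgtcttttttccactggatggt
AC115970.1 member: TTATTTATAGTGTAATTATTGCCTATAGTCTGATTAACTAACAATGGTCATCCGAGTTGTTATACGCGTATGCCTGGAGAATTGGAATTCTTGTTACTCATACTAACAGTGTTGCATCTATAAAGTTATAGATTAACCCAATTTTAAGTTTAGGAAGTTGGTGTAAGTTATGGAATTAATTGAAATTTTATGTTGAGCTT
Pak3 member: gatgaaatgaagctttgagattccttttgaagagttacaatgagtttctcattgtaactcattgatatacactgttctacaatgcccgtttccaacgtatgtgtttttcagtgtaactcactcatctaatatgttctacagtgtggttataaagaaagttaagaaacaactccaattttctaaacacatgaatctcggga
Gm43393 member: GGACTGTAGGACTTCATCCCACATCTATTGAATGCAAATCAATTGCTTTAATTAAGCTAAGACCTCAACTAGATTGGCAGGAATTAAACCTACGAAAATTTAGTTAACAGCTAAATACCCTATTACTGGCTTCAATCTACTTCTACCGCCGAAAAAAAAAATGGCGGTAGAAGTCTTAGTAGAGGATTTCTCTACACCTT

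The second set holds 3 of the 4 strongest members with no late 1-cell DMSO peak, at chr14:8286652-8286851 (nearest gene Fam107a), chr1:39135264-39135463 (Mir6349) and chr12:67059352-67059551 (Gm47987). None of the 11 motifs listed further on occurs in these bases, and capitals mark CpG dinucleotides. The Fam107a and Gm47987 members did overlap a peak of the late 1-cell A-485 list, with fold enrichments of 10.1 and 11.5 there, and the Mir6349 member overlapped neither late 1-cell list.
Fam107a member: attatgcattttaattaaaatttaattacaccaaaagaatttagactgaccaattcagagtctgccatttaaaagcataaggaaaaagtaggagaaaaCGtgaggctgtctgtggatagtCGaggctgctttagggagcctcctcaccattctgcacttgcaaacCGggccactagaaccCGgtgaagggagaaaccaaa
Mir6349 member: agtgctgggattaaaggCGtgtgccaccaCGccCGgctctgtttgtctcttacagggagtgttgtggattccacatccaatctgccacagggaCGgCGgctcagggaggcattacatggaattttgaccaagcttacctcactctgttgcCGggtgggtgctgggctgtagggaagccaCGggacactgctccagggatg
Gm47987 member: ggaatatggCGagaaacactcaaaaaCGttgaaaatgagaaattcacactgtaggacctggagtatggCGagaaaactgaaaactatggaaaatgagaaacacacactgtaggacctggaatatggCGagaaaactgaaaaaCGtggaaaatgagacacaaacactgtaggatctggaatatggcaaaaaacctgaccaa

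The third set holds the 3 strongest members with a CTCF motif, at chr19:40873333-40873532 (nearest gene E030044B06Rik), chr5:114667650-114667849 (Trpv4) and chr19:44474273-44474472 (Wnt8b). It was chosen after the motif counts had been seen. Capitals mark the motif, which lies on the reverse strand at the Trpv4 and Wnt8b members.
E030044B06Rik member: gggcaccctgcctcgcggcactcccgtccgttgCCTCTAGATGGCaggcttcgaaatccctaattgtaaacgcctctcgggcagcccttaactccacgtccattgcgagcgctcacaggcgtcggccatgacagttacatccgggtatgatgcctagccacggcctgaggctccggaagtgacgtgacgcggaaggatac
Trpv4 member: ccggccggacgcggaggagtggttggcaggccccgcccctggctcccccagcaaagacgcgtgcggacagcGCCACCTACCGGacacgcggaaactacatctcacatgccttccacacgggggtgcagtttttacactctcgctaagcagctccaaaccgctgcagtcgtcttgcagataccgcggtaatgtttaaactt
Wnt8b member: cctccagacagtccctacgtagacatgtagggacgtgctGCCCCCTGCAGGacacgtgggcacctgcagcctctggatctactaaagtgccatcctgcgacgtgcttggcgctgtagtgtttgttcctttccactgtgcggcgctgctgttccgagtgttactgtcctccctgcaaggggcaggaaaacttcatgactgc

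Strength was read as the fold enrichment that the peak caller gives at a summit, the signal there over the local background, and for a peak with several summits the highest was used. Since the same 2 lists selected the members, their strength is a description without a test. The median member had a fold enrichment of 8.91 in the DMSO list (quartiles 7.52 and 11.0, range 2.50 to 65.4) and 7.95 in the A-485 list (range 3.97 to 64.9). Distal peaks that were not retained had a median of 8.29 in the DMSO list, with quartiles of 6.79 and 9.95, and retained promoter peaks had 8.42. Most members thus lay inside the range of the peaks that were not retained. Of the 4180 weakest distal peaks by DMSO fold enrichment 3.49% were members (95% Wilson interval 2.98 to 4.09), against 7.75% (6.98 to 8.601) of the 4180 strongest.

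At the median member the A-485 value was somewhat below the DMSO value, among peaks that had to be called in both lists to enter. The ratio of A-485 to DMSO fold enrichment had a median of 0.898 (quartiles 0.742 and 1.12), 334 of the 926 members were at least as high with A-485, and 41 were below 0.5 of their DMSO value. At retained promoter peaks the median ratio was 1.02. The strongest summits of the 2 peaks lay a median of 17.5 bases apart, and within 50 bases at 751 members. At 845 members at least 50% of the DMSO peak was covered by A-485 peaks. Since the rule required an overlap of these 2 lists, this closeness in position is a description and carries no test.

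**Figure D1:**
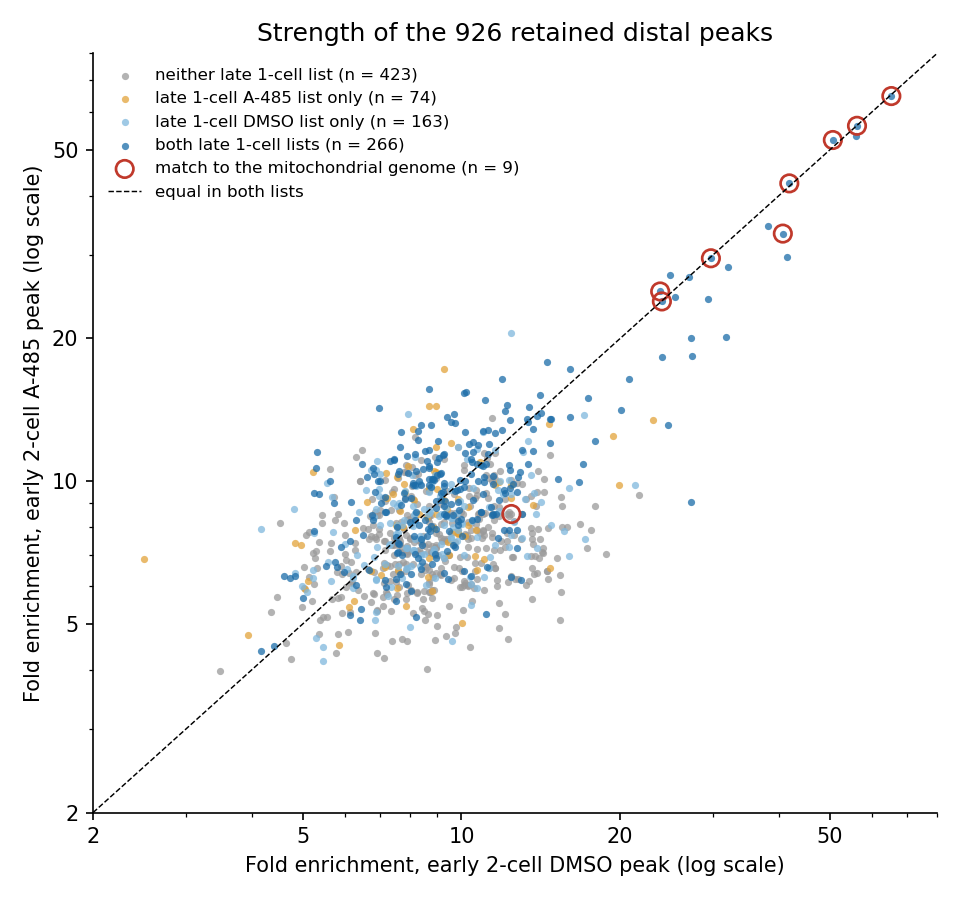
Fold enrichment of each of the 926 members in the early 2-cell DMSO list (x axis, log scale) and in the A-485 list (y axis, log scale), coloured by late 1-cell state, with red rings around the 9 members that match the mitochondrial genome. Most points lie between 5 and 20 on both axes, and 8 of the 9 ringed members lie above 20 on both axes and near the dashed line of equality.

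A separate tail of very strong members stood out. In the DMSO list 27 members exceeded a fold enrichment of 20, against 14 of the 15793 distal peaks that were not retained, and 24 of the 27 overlapped peaks of both late 1-cell lists. Of these 27, 8 matched the mitochondrial genome. In all, 9 members (0.972%) matched it over at least 50 bases (blastn, E-value at most 1e-10), against 2 (0.0127%) of the distal peaks that were not retained and 11 (0.223%) of the retained promoter peaks. Reads from mitochondrial DNA, which is not wrapped in nucleosomes and is abundant in embryos, can align to such nuclear copies, and the part of such reads in these peaks was not tested.

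The strongest member, at chr2:69355469-69355735 and 12853 bp from the start of Abcb11, the bile salt export pump, had a fold enrichment of 65.4 with DMSO and 64.9 with A-485 in the early 2-cell lists. In the late 1-cell lists it had 65.02 with DMSO and 65.2 with A-485. All 4 lists thus gave it nearly the same value. The member at chr10:96077484-96077949, in an intron of the pseudogene AC115970.1, had 56.3 and 56.2 in the early 2-cell lists, and the late 1-cell lists gave 51.7 and 50.5. The member near Pak3 (chrX:143482940-143483180) had no mitochondrial match and reached 56.1 and 53.5 in the early 2-cell lists, and the late 1-cell lists gave 57.5 and 56.9. Of the 12 strongest members, 6 matched the mitochondrial genome, at identities of 90.3 to 100%, and the other nearest genes among the 12 were Pak3, AC154187.1, Gm20281, Gm13191, Gm27679 and Cd209a. Only Ric8b, a chaperone of G protein α subunits, and Gm13191 among the 12 nearest genes had a mean above 1 FPKM in an early 2-cell group.

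The members were somewhat wider than the other distal peaks. Their median width was 504.5 bp (range 188 to 1461), against 443 bp for distal peaks that were not retained and 730 bp for retained promoter peaks. More than 1 summit was called in 41.4% of members and in 34.8% of distal peaks that were not retained. The matching A-485 peak had a median width of 477 bp.

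Whether the retained regions were already open before the 2-cell stage was read from the late 1-cell lists. These come from embryos of another stage and were not used to choose the members. They went through the same processing as the early 2-cell lists, so they are not wholly independent. A late 1-cell DMSO peak overlapped 429 of the 926 members, or 46.3% (95% Wilson interval 43.1 to 49.6), against 329 of 15793 distal peaks that were not retained, or 2.08% (1.87 to 2.32). These intervals cover counting error over peaks only, since each list pools both libraries and no spread between libraries can be had. Of the retained promoter peaks 69.98% overlapped a late 1-cell DMSO peak. The late 1-cell A-485 list overlapped 340 members (36.7%), 95 distal peaks that were not retained (0.602%) and 69.8% of retained promoter peaks. That list held 7094 peaks, against 10214 in the late 1-cell DMSO list, so the shares for the 2 lists are not on 1 scale.

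By the late 1-cell lists the members fell into 4 states. Peaks of both lists overlapped 266 members, 163 were in the DMSO list only, 74 in the A-485 list only, and 423 (45.7%) in neither. Read the other way, 320 distal early 2-cell peaks were in both late 1-cell lists, and 266 of them (83.1%, interval 78.6 to 86.8) were retained. The retained share was 37.2% (32.8 to 41.8) for the 438 peaks in the late 1-cell DMSO list only, 64.3% (55.3 to 72.5) for the 115 in the A-485 list only, and 2.67% (2.43 to 2.93) for the 15846 in neither list.

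**Figure D2:**
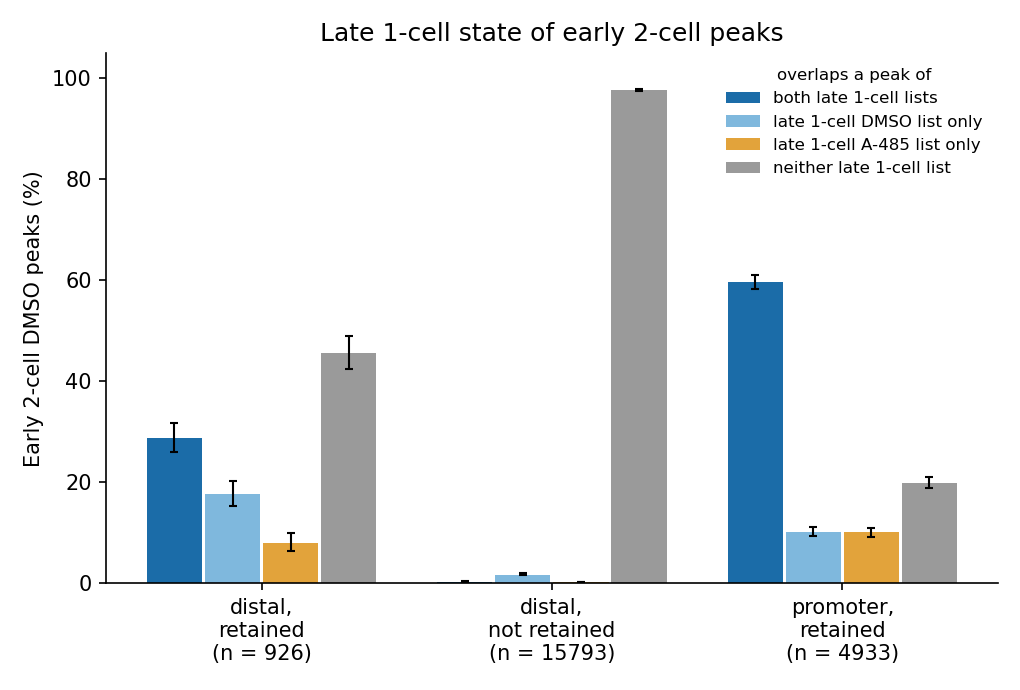
Share of early 2-cell DMSO peaks (y axis, %) in each of 4 late 1-cell states, for the 926 members, the 15793 distal peaks that were not retained and the 4933 retained promoter peaks, with 95% Wilson intervals as error bars. Overlap with neither late 1-cell list falls from 97.7% of distal peaks that were not retained to 45.7% of members and 19.9% of retained promoter peaks.

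The late 1-cell difference held within each of 4 bins of early 2-cell fold enrichment, cut to equal numbers of distal peaks. Among distal peaks with a late 1-cell DMSO peak the retained share was 48.4% (interval 39.9 to 57.1) in the weakest bin and 59.3% (53.3 to 65.1) in the strongest. Among those without, it was 2.097% (1.70 to 2.59) and 4.29% (3.70 to 4.97). The late 1-cell DMSO fold enrichment had a median of 7.30 at the 429 members and of 6.63 at the 329 other distal peaks that had one. Leaving out the 9 members with a mitochondrial match gave 45.9%, and leaving out those over a fold enrichment of 20 gave 44.9%.

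The members in both late 1-cell lists were also those least changed in strength at early 2-cell. These 266 members had a median A-485 to DMSO ratio of 0.994, and the 423 in neither list had 0.815. The states between did not follow the late 1-cell DMSO list, with 0.918 for members in that list only and 0.941 for those in the A-485 list only. In the DMSO list the median fold enrichments of the groups in both and in neither were closer to each other, at 9.33 and 8.77. The group in neither list was also the richest in repeats, with a median of 37.7% of bases soft-masked against 7.67% for the group in both. These comparisons use the values that chose the members and carry no test.

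Base composition set the members between distal and promoter peaks. In the 300 bases centred on the strongest summit, the median GC content was 52.3% in members, 48.0% in distal peaks that were not retained and 64.0% in retained promoter peaks. The CpG ratio, the number of CpG dinucleotides over that expected from the C and G content, had medians of 0.350, 0.212 and 0.831. A window with GC above 50% and a CpG ratio above 0.6, as in CpG islands, was found at 136 members (14.7%, interval 12.6 to 17.1), at 0.507% of distal peaks that were not retained and at 85.2% of retained promoter peaks. Of the 216 distal peaks with such a window 136 (62.96%, interval 56.3 to 69.1) were retained.

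Repeats separated the 2 distal groups further. Soft-masked bases, which mark interspersed and simple repeats in the reference genome, made up a median of 14.3% of the window in members and 56.0% in distal peaks that were not retained. No base was masked at 229 members (24.7%) and at 1.68% of distal peaks that were not retained. The 31 bases at the summit occurred more than once in the genome at 85 members (9.18%, interval 7.48 to 11.2) and at 10.5% (10.0 to 11.0) of distal peaks that were not retained, and more than 10 times at 2.38% and 4.73%. Among the 27 members over a fold enrichment of 20 they occurred more than once at 10 (37.0%, interval 21.5 to 55.8). The share was 8.34% (6.71 to 10.3) among the other members. The member with most exact copies, near Atf7 at chr15:102589880-102590499, had 9201, with a fold enrichment of 9.399 with DMSO and 7.54 with A-485.

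**Figure D3:**
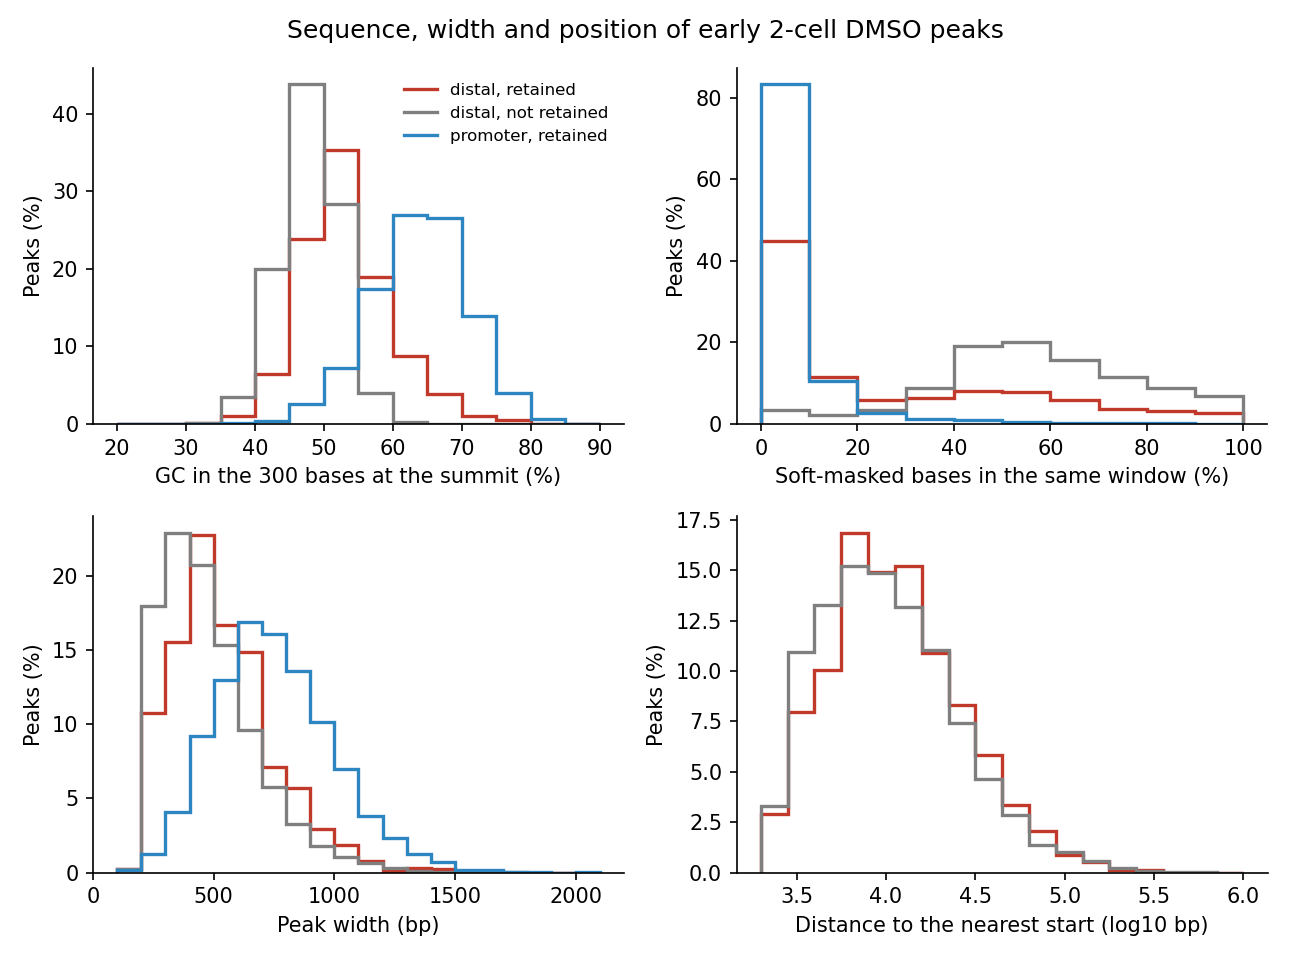
Distribution (y axes, % of the peaks of each group) of GC content, soft-masked share, peak width and distance to the nearest GENCODE start (x axes) for the members in red, distal peaks that were not retained in grey and retained promoter peaks in blue, which are left out of the distance panel. The members' GC content lies between the other groups, their soft-masked share piles up below 10%, and their distances follow those of the other distal peaks.

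Motifs were counted on both strands of the same 300 bases, as letters only, and a match is not evidence of binding. The CTCF motif was found at 132 members (14.3%, interval 12.1 to 16.7), at 0.893% of distal peaks that were not retained, at 4.05% of retained promoter peaks and at 1.40% of 32851 RefSeq promoters of the same length. Of the 273 distal peaks with this motif 132 (48.4%, interval 42.5 to 54.3) were retained, against 4.83% of those without. The share was high in both late 1-cell states: 71 of 94 motif peaks with a late 1-cell DMSO peak were retained (75.5%, interval 66.0 to 83.1), and 61 of 179 without one (34.1%, interval 27.5 to 41.3). Where the motif was absent these shares were 53.9% and 2.76%.

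The 3 sequences with a CTCF motif printed above came from members of 14.8 to 17.0 in the DMSO list and 10.1 to 13.5 in the A-485 list. The member near Wnt8b, a Wnt ligand gene, had 14.8 with DMSO and 13.5 with A-485 in the early 2-cell lists, and the late 1-cell lists gave 9.02 and 8.13. The late 1-cell DMSO list held a peak at all 3, and at 71 of the 132 members with the motif. Across the 132 members with the motif the median fold enrichment was 8.498 with DMSO and 8.18 with A-485.

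Motifs common at promoters were also more frequent in members. The GC box GGGCGG, bound by Sp factors, was found at 227 members (24.5%, interval 21.8 to 27.4), 6.55% of distal peaks that were not retained, 75.3% of retained promoter peaks and 35.7% of RefSeq promoters. The CCAAT box CCAATCA, bound by NF-Y, was found at 8.10% of members and 2.67% of distal peaks that were not retained, and the ETS motif CCGGAAG, bound by Gabpa among others, at 4.54% and 0.988%. The NRF1 motif GCGCATGCG was found at 8 members and 8 other distal peaks, and the CRE TGACGTCA at 12 members and 18 others. GC box and CTCF motif occurred together at 29 members, and 596 members held neither.

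Sites of factors tied to the 2-cell programme did not follow this order. The Nr5a2 motif CAAGGTCA, which contains the nuclear receptor half-site AGGTCA, was found at 16 members (1.73%, interval 1.07 to 2.79) and at 825 distal peaks that were not retained (5.22%, 4.89 to 5.58). Of the 841 distal peaks with it 1.90% (1.17 to 3.07) were retained. The half-site itself was found at 15.7% and 18.5%, and the Klf motif GGGTGTGG at 7.02% and 7.36%. The Dux motif TGATTNAAT was found at 3 members (0.324%, interval 0.110 to 0.948) and at 121 others (0.766%, 0.642 to 0.915). These intervals overlap, and the share over all early 2-cell DMSO peaks was 0.646%. The YY1 motif AAGATGGC, in contrast, was more frequent in members, at 2.38% against 1.41%, and was found at 6.26% of retained promoter peaks. None of the 11 motifs was found at 385 members (41.6%) and at 65.4% of distal peaks that were not retained.

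**Figure D4:**
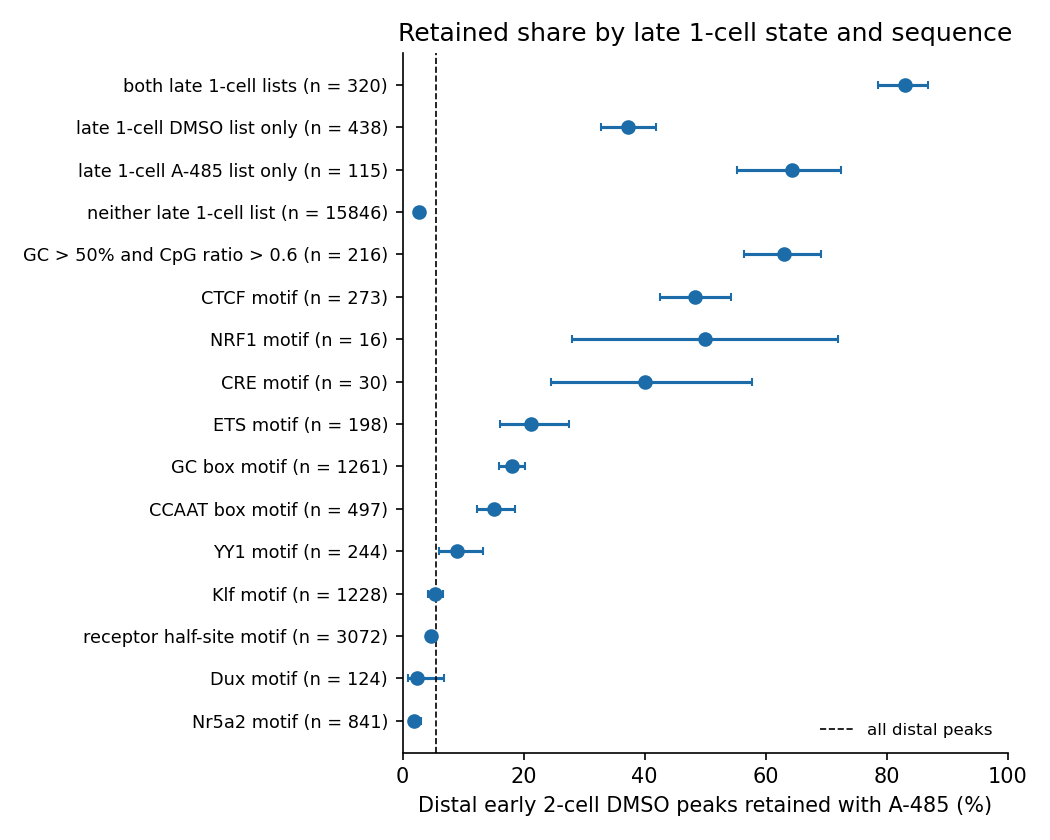
Share of distal early 2-cell DMSO peaks that were retained with A-485 (x axis, %), with 95% Wilson intervals, for peaks in each late 1-cell state, with a CpG-rich window, or with each motif in the 300 bases at the summit (y axis, with the number of distal peaks). The dashed line is the share over all distal peaks, and the states and motifs run from 83.1% for peaks in both late 1-cell lists to 1.90% for those with the Nr5a2 motif.

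The RNA of the factors behind these motifs was read in the early 2-cell libraries. Ctcf was at 73.6 and 73.6 FPKM with DMSO and at 77.6 and 76.9 FPKM with A-485 (edgeR quasi-likelihood test, log2 fold change 0.10 ± 0.07 SE, Benjamini-Hochberg adjusted p = 0.484). Rad21, a cohesin subunit, was at 124.1 and 119.6 FPKM with DMSO and 105.1 and 104.3 FPKM with A-485 (adjusted p = 0.160). The cohesin subunit gene Smc3 was lower with A-485 by a log2 fold change of -0.76 ± 0.14 (adjusted p = 0.00254), short of the fold of 2 used for a call, and its FPKM values were 9.42 and 10.35 with DMSO and 9.39 and 5.93 with A-485. Smc3 is itself the nearest gene of a member, whose summit lies in an intron, at chr19:53608872-53609377. Sp1, Sp2, Nfya, Nfyc, Nrf1 and Duxf3 had adjusted p-values of 0.0907 to 0.979.

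Of the 20 listed factors 6 were called down at early 2-cell, where 7.9% of all genes tested were, and 1 was called up, where 0.402% were. Klf4 fell from 28.9 and 29.5 FPKM to 10.3 and 11.4 FPKM (log2 fold change -1.43 ± 0.12, adjusted p = 4.62e-06), Klf5 by 1.75, Gabpa by 1.65, Nfyb by 1.46, Yy1 by 1.04 and Rarg by 2.49 on the log2 scale. Nr5a2 was at 38.9 and 29.4 FPKM with DMSO and 21.2 and 18.1 FPKM with A-485 (log2 fold change -0.53 ± 0.14, adjusted p = 0.0320), short of a fold of 2. Creb1 was called up (log2 fold change 1.21 ± 0.30, adjusted p = 0.0183), while its FPKM values overlapped, at 1.35 and 4.31 with DMSO and 3.89 and 3.99 with A-485. The targets of the inhibitor were expressed in both groups, Crebbp at 298 to 319 FPKM and Ep300 at 51.4 and 41.6 FPKM with DMSO and 31.5 and 32.2 FPKM with A-485. Ep300 was lower with A-485 (edgeR quasi-likelihood test, log2 fold change -0.47 ± 0.07, adjusted p = 0.000962), short of a fold of 2. At late 2-cell 15 of the 20 listed factors were called down, where 16.8% of all genes tested were, Ctcf not among them (log2 fold change -0.58 ± 0.11, adjusted p = 0.00139, short of a fold of 2).

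In distance to genes the members lay close to the other distal peaks, while fewer of them lay in introns. The median distance to the nearest start was 10623 bp (quartiles 6249 and 19025, highest 282632), against 9424 bp for distal peaks that were not retained, and 52 members lay over 50 kb away. The strongest summit lay between genes at 576 members (62.2%), in an intron at 299 (32.3%) and in an exon at 51 (5.51%), against 44.7%, 52.9% and 2.44% of distal peaks that were not retained. A RefSeq transcript started within 1 kb of 70 members (7.56%, interval 6.02 to 9.44) and of 2.36% (2.13 to 2.60) of distal peaks that were not retained, so that some members lie at starts that GENCODE M21 does not hold. When starts of both annotations were required to be over 2.5 kb away, 819 members were left, of which 44.9% had a late 1-cell DMSO peak.

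Members were found on every chromosome examined, from 4 on Y to 79 on 11, with the highest share of distal peaks retained among autosomes on 3 (8.45%) and the lowest on 16 (3.83%). On X it was 9.13% of 493 distal peaks, and on Y 4 of only 5. Few members were close together: 38 (4.10%) had another within 10 kb of their summit and 110 (11.9%) within 50 kb. The 4 on Y lay between positions 90718177 and 90744942 near Mid1-ps1. A run of 3 lay at chr3:93766309-93821120, near Gm5773 and Tdpoz3 in the Tdpoz gene cluster, and another at chr6:49217576-49269511, near Igf2bp3 and Tra2a.

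RefSeq annotates 5 members (0.540%, interval 0.231 to 1.26) as regulatory elements. The share was 0.152% for distal peaks that were not retained (24 peaks), 0.324% for retained promoter peaks and 0.206% for all early 2-cell DMSO peaks. All 5 overlapped a late 1-cell DMSO peak, as did 46.3% of all members. The 5 are VISTA enhancers near Wnt10a (chr1:74816487-74817419), near 1600010M07Rik (chr7:110164818-110165254) and near Gm39456 (chr9:120602102-120603117), an enhancer near Tbx4 (chr11:85876461-85876858), and a region upstream of Mir290a (chr7:3211934-3212184) named for the regulation of that microRNA locus, which is expressed in early embryos and embryonic stem cells. A RefSeq transcript starts inside the Wnt10a member and 232 bp from the Gm39456 member, so both lie at or near starts that GENCODE M21 does not hold. The Mir290a member had fold enrichments of 5.26 with DMSO and 7.76 with A-485 in the early 2-cell lists, and of 6.86 with DMSO in the late 1-cell list. The Tbx4 member had 8.17 and 9.83, and the late 1-cell lists gave 9.10 and 9.27. RNA of Tbx4, a limb and lung transcription factor, was at 48.9 and 52.9 FPKM with DMSO and 53.7 and 49.9 FPKM with A-485, while Mir290a was listed at 0 in all 4 early 2-cell libraries. Whether these total RNA libraries can hold so short an RNA was not tested, so the 0 is not read as absence.

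At the limits of the rule, the members nearest to a start lay 2502 bp from Frem2, 2506 bp from Alpi and 2529 bp from Rab11fip1, with DMSO fold enrichments of 7.50, 8.52 and 4.65. Just outside were A-485-overlapping peaks at 2497 bp from Ltbp4, 2478 bp from Pnma5 and 2474 bp from Fat1, with 6.91, 10.8 and 5.84. The smallest overlap between a member and its A-485 peak was 7 bp, at chr17:47280570-47281049, followed by 71 and 76 bp. The nearest misses lay 13, 29 and 42 bp from an A-485 peak, and 152 of the 15793 distal peaks that were not retained lay within 1 kb of one.

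The nearest genes of the members were read in RNA-seq, an assay that the rule did not use. The 926 members have 889 different nearest genes, 413 of which are also nearest to a distal peak that was not retained, and 887 were found in the count tables. At early 2-cell 528 of them passed the filter of 10 counts summed over the 4 libraries, and 344 had a mean of at least 1 FPKM with DMSO. A gene was called changed at an adjusted p under 0.05, a fold of at least 2 and a mean of at least 1 FPKM in either group. With A-485, 51 of the 528 fell (9.66%), against 7.9% of all genes tested, and 2 rose (0.379%), against 0.402% of all genes. The median log2 fold change was -0.02 over the 528 genes and 0.00 over all genes tested. For nearest genes of distal peaks that were not retained, 9.07% fell. The members' share that fell was near the background.

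The counts were split by late 1-cell state and by shared genes. Of the tested genes nearest to the 429 members with a late 1-cell DMSO peak 10.8% fell, and of those nearest to the other 497 members 9.396%. Among the nearest genes that are shared with distal peaks that were not retained 35 of 283 fell, and among those that are not shared 16 of 245. The difference between these pairs was not tested.

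The 8 nearest genes that fell most, among those within 50 kb, with a mean of at least 5 FPKM in 1 group and with groups that did not overlap, include known genes of the 2-cell stage. Zfp352 is also in the list of 2-cell markers. Zfp352, a zinc finger gene of the 2-cell stage, was at 121.6 and 112.4 FPKM with DMSO and at 1.28 and 1.52 FPKM with A-485 (log2 fold change -6.46 ± 0.13, adjusted p = 6.06e-11). Its member, at chr4:90203499-90203787 and 15033 bp away, had a fold enrichment of 10.1 with DMSO and 8.85 with A-485, overlapped a late 1-cell DMSO peak and held an Nr5a2 motif. The RNA was close to absent with A-485 while the peak was called in both lists, and 2 further distal peaks nearest to Zfp352 were not retained.

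Genes of the Tdpoz family, which encode BTB domain proteins, fell as well. Tdpoz3 was at 40.9 and 43.0 FPKM with DMSO and at 0.12 and 0.31 FPKM with A-485 (log2 fold change -7.55 ± 0.33, adjusted p = 9.34e-09). Tdpoz2 was at 15.4 and 6.99 FPKM with DMSO and at 0.05 and 0.09 FPKM with A-485, where each library held at most 3 counts, and was 163 times higher with DMSO (95% counting interval 55.6 to 795). Gm5773, in the same cluster, was at 12.02 and 10.85 FPKM with DMSO and at 0.19 and 0.04 FPKM with A-485. Genes of this family are near-identical copies, so that reads could be shared between them. The members near Tdpoz3, at chr3:93820577-93821120, and near Tdpoz2, at chr3:93659048-93659470, had fold enrichments of 13.3 and 7.00 with DMSO and 6.94 and 8.09 with A-485, and both overlapped a late 1-cell DMSO peak.

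The remaining genes of this group were less well described. Gm33466, a predicted gene, was at 36.8 and 32.7 FPKM with DMSO and was listed at 0 in both A-485 libraries, so that it was at least 399.5-fold lower against a floor of 3 counts per library. Guca1a, known from photoreceptors as an activator of guanylate cyclase, was at 14.3 and 12.03 FPKM with DMSO and at 0 and 0.06 FPKM with A-485, and was 412.5 times higher with DMSO (counting interval 73.6 to 16335). Its member, at chr17:47395392-47396157, had its summit in an exon. Gm13191, nearest to the member of fold enrichment 32.1 on chromosome 2, was at 15.2 and 8.61 FPKM with DMSO and 0.20 and 0 FPKM with A-485, or 121.5 times higher with DMSO (counting interval 21.4 to 4841). AC148019.3 was at 27.8 and 21.4 FPKM with DMSO and 0.03 and 0.62 FPKM with A-485.

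No nearest gene passed the rule for named genes that rose. The 2 that were called up, named after their values were seen, were Spred3, a Ras pathway inhibitor, at 0.37 and 0.32 FPKM with DMSO and 0.89 and 1.35 FPKM with A-485 (log2 fold change 1.67 ± 0.47, adjusted p = 0.0388), and Gm36940, at 0.81 and 1.51 FPKM with DMSO and 2.65 and 3.41 FPKM with A-485 (1.40 ± 0.39, adjusted p = 0.0377). Both calls were near the threshold, and the number called up was 3 without A-485 replicate 1, 0 without A-485 replicate 2, 1 without DMSO replicate 1 and 5 without DMSO replicate 2.

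At late 2-cell, after release from the inhibitor, 582 of the nearest genes were tested. With A-485 126 of them fell (21.6%), against 16.8% of all genes tested, and 51 rose (8.76%), against 10.5% of all genes. For nearest genes of distal peaks that were not retained the shares were 23.5% and 6.76%, and for genes nearest to retained promoter peaks 35.0% fell. The median log2 fold change over all genes tested was 0.28 at this stage (0.34 with DESeq2's size factors), so that a gene at 0 lies below the middle of the table. The median over the 582 genes was 0.06. Oocyte markers summed to 1333 and 1343 FPKM with A-485 and to 695 and 735 FPKM with DMSO, and 2-cell markers to 51.3 and 51.8 FPKM against 221 and 235 FPKM. Of the 5 cumulus cell markers 4 were above 0 in both A-485 libraries, where they summed to 3.08 and 3.25 FPKM, and 2 in both DMSO libraries, with sums of 0.20 and 1.07 FPKM. Has2 was at 1.13 and 1.03 FPKM with A-485 and 0.17 and 0.19 FPKM with DMSO, Foxl2 was at 1.47 and 1.63 FPKM with A-485 and 0 and 0.09 FPKM with DMSO, and Amh was listed at 0 in all 4. The part of these marker differences in the counts was not tested.

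Of the 51 genes that fell at early 2-cell 46 also fell at late 2-cell, and 1, Neurog2, rose. Over all genes 1222 of the 1649 that fell at early 2-cell also fell at late 2-cell (74.1%) and 42 rose, and for nearest genes of distal peaks that were not retained it was 450 of 554 (81.2%). These shares were not tested against each other. Zfp352 was at 60.2 and 60.0 FPKM with DMSO and 19.3 and 13.5 FPKM with A-485 at late 2-cell (log2 fold change -2.22 ± 0.20, adjusted p = 2.78e-06), and Tdpoz3 was at 19.4 and 29.5 FPKM against 3.78 and 7.21 FPKM. Gm33466, listed at 0 with A-485 earlier, reached 7.62 and 7.08 FPKM against 65.9 and 67.5 FPKM. All 8 genes named as falling at early 2-cell were still called down at late 2-cell, with log2 fold changes of -2.22 to -5.06 at 7 of them, while Gm13191, at 1 count in each A-485 library, was 39.6 times higher with DMSO (counting interval 10.7 to 331).

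**Figure D5:**
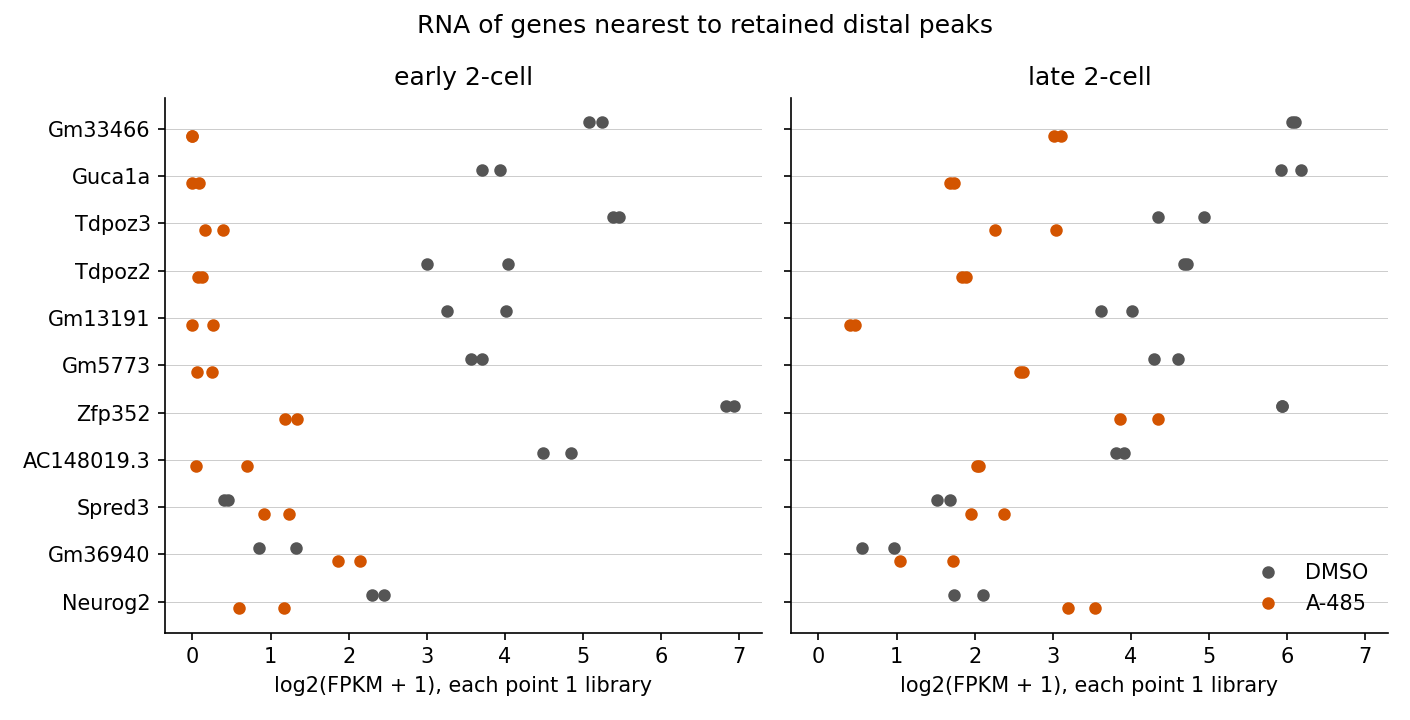
RNA level, as log2(FPKM + 1), of the 8 most reduced nearest genes, the 2 called up at early 2-cell and Neurog2 (y axis) in each early 2-cell library (left) and late 2-cell library (right), with DMSO in grey and A-485 in orange. At the first 8 genes both A-485 libraries lie below both DMSO libraries, at early 2-cell because they were chosen so, and also at late 2-cell, and at Neurog2 the order turns over between the stages.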

How the data were processed

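Per the study's methods, the authors ran ATAC-seq reads through the ENCODE pipeline and kept the optimal peaks that replicates shared, and aligned RNA-seq reads with STAR before gene quantification with RSEM. The submitters' processing notes name STAR 2.7.8a, RSEM 1.3.1, Bowtie2 2.4.2 and the builds GRCm38 and mm10. Each deposited peak list covers both libraries of a group, so peaks have no replicate error. Its columns, as deposited by the authors, hold a score, a fold ratio over background, a −log10 p-value (not used here), a −log10 q-value and a summit, and lines of 1 position were joined here. All 58713 joined peaks lie within GRCm38 chromosome ends. The deposited RSEM files give expected counts, rounded here to whole numbers, and FPKM made by the authors.

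Distances are from peak edges to 132629 GENCODE M21 starts. Shares carry 95% Wilson intervals. Sequence came from GRCm38.p6 (RefSeq), mitochondrial matches from blastn 2.17.0, and promoter windows from RefSeq (GRCm38.p6). Genes were matched by Ensembl ID without its version. Expected counts were tested with edgeR 4.0.16 (TMM, quasi-likelihood, 2 libraries against 2, Benjamini-Hochberg over all genes), after a filter of 10 summed counts, and checked on simulated counts. Alternatives included DESeq2 1.42.0, other normalization, filters, starts and overlaps, each library left out and a replicate block. Same-numbered libraries did not deviate together (Pearson r of -0.01 at both stages), so the numbers were not taken as pairs.

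The members, gene lists, motifs and tests were chosen with earlier results of these data known. Named genes were those nearest to the 12 strongest members, the 8 most reduced and 8 most increased nearest genes within 50 kb at early 2-cell with at least 5 FPKM in the higher group and no overlap, and a list of factors. Zygote RNA-seq was not tested, and samples of other treatments or assays were not used here. A further late 2-cell DMSO group, the control of another treatment, was also not used. A few withheld items, among them sequences, are not reported here.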

Additional observations from a re-analysis of the deposited data

Results flagged for a closer look

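Neurog2, a proneural transcription factor gene and the nearest gene of 2 members, moved in opposite directions at the 2 stages. At early 2-cell it was at 4.45 and 3.91 FPKM with DMSO and at 0.51 and 1.26 FPKM with A-485 (edgeR quasi-likelihood test, log2 fold change -2.22 ± 0.40, adjusted p = 0.00254). At late 2-cell it was at 2.33 and 3.29 FPKM with DMSO and at 8.15 and 10.6 FPKM with A-485 (log2 fold change 1.5469 ± 0.32, adjusted p = 0.00241, where the median of all genes tested was 0.28). Both libraries of each group lay on the same side, and the difference between the stages was not tested. The stronger of its 2 members, at chr3:127625345-127625692 and 7443 bp away, was in both late 1-cell lists and had a fold enrichment of 6.31 with DMSO and 8.27 with A-485 at early 2-cell.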

How the results depend on the processing

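The number of members was 819 to 1183 under other starts, distances, overlaps and q-value limits, and 583 when the early 2-cell lists were cut to equal numbers of their strongest peaks, which leaves fewer DMSO peaks. The share with a late 1-cell DMSO peak was 49.7% with protein-coding starts and 39.8% when late 1-cell peaks had to cover at least 50% of the member, and 44.9 to 48.9% otherwise. The starts of both annotations, the mitochondrial matches and the limit of 20 on fold enrichment were added after seeing the data. Counts of nearest genes that fell stayed within 1.5 times: 45 to 53 with a library left out at early 2-cell and 108 to 124 at late 2-cell, and 44 to 51 rose there. The nearest gene was protein-coding at 545 members (58.9%). With the nearest protein-coding start instead, 74 of 736 tested genes fell at early 2-cell (10.1%) and 181 of 772 at late 2-cell (23.4%). The early 2-cell number that rose was 5 without a low-count filter and 5 with a replicate block, 1 with protein-coding starts, 1 within 50 kb, and 0 to 5 with a library left out: 3 without A-485 replicate 1, 0 without A-485 replicate 2, 1 without DMSO replicate 1 and 5 without DMSO replicate 2. The replicate block gave 53 that fell at early 2-cell, and 125 and 50 that fell and rose at late 2-cell, so it changed no other count by over 1.5 times. Over all genes tested at early 2-cell 84 rose, and 137 without the low-count filter. A whole peak in place of 300 bases gave 31.2% with a GC box and 16.2% with a CTCF motif. Peak depth is unknown, so a missing late 1-cell peak or early 2-cell A-485 peak means not called.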
